A study of Drosophila melanogaster with 6 samples.

Results

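DNA copy number in salivary glands of H4K16R larvae was compared with that in HWT glands over every 10 kb window that the study listed at under-replicated domains, in 1 list for pericentric heterochromatin and 1 for the chromosome arms. The lists hold 2189 different windows. A ratio of H4K16R to HWT could be taken at 2176 of them, 1368 pericentric and 808 on the arms, and the other 13 were at 0 in either genotype. Every genotype lacked the endogenous cluster of replication-dependent histone genes (a homozygous ΔHisC deletion), and a transgenic array supplied those histones. The array encoded wild-type histones in HWT (Histone Wild Type), histone H4 whose lysine 16 was changed to arginine in H4K16R, and histone H3 whose lysine 9 was changed to arginine in H3K9R. The fathers carried the array and a UAS-2xEYFP reporter, the mothers carried twi-GAL4, and fluorescent female larvae were taken at the wandering stage. Each genotype had 2 replicates, each of 20 ng of DNA from 25 glands. The arrays came from separate stocks, so the residue and any other difference between the stocks cannot be told apart. The replication-independent gene His4r remained in all genotypes and encodes the same H4 protein with its lysine, so H4K16R glands are not free of unmutated H4.

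Salivary gland cells of Drosophila larvae become polyploid by endoreplication, in which rounds of DNA synthesis follow each other without division. Heterochromatin and some late-replicating domains on the arms do not complete these rounds and remain under-replicated, with fewer copies than the rest of the genome. Acetylation of lysine 16 of H4 is an open-chromatin mark that the acetyltransferase MOF of the dosage compensation complex spreads over the X chromosome of males. The larvae studied were female, in which that complex does not assemble on X.

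The deposited values are reads per window scaled to the library's depth (RPM), averaged by the authors over both replicates. From the steps of these averages the reads of the single libraries were derived. Replicate numbers cannot be read from averages, so the libraries of a genotype are named here by depth, deeper and shallower. These were 25799522 and 25408559 reads in HWT and 26685461 and 23148290 reads in H4K16R. A median pericentric window held between 360 and 423 reads in these 4 libraries, and a median arm window between 952.5 and 1099.5. Pearson's r between the libraries of a genotype was 0.995 in both HWT and H4K16R over the 2189 windows, which are not independent.

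The windows printed here are examples from the extremes of the comparison. They are the ones with the highest and the lowest H4K16R/HWT ratio of each list among windows of at least 5 RPM in HWT, with any on the right arm of chromosome 2 left out, and the central 240 bases of each are printed from the dm6 assembly (RefSeq), plus strand. Capitals mark bases covered by a 100-base sequence that occurs once in the assembly, and lower case marks bases that no such sequence covers.
Lowest pericentric window, chrX:23184881-23185120: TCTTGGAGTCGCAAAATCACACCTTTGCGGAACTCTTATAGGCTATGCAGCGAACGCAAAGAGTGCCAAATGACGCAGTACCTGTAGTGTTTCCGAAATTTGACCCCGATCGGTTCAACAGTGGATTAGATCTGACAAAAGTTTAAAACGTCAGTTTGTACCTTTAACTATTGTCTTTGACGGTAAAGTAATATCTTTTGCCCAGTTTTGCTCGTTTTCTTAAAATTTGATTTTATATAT
Highest pericentric window, chrX:23424881-23425120: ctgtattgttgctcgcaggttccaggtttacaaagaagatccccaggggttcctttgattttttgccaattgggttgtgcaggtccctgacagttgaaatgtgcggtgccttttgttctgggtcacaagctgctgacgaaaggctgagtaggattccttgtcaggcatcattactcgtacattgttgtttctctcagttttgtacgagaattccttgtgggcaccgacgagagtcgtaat
Lowest arm window, within shakB, chrX:20854881-20855120: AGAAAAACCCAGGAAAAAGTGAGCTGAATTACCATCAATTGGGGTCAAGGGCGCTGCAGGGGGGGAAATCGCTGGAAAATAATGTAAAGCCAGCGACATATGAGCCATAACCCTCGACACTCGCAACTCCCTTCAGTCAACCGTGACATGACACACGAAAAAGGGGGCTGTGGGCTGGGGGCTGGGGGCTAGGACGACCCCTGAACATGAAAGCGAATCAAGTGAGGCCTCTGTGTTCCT
Highest arm window, near the X tip, chrX:74881-75120: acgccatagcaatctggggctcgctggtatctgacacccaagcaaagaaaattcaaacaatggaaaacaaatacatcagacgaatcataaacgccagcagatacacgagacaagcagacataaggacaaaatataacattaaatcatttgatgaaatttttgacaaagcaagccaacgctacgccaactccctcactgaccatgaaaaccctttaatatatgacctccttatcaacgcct
With that arm left out, all 4 lie on X. The stretches printed from both lowest windows consist of sequence that occurs once, and those printed from both highest windows hold none. Reads were also kept in a pericentric X window with 0% unique 100-base sequences, at 21.3 and 19.6 RPM in the HWT libraries. Which parts of a window its reads came from was therefore not determined. In the lowest pericentric window the RPM was 20.0 and 22.8 in the HWT libraries and 8.58 and 7.73 in the H4K16R libraries. In the highest pericentric window it was 8.92 and 9.29 in HWT and 23.5 and 19.8 in H4K16R. The lowest arm window had 18.3 and 18.1 RPM in HWT and 13.9 and 13.0 RPM in H4K16R, and the highest of the printed arm windows 7.95 and 7.08 RPM in HWT and 13.6 and 11.4 RPM in H4K16R. The libraries of the genotypes did not overlap at any of the 4. These windows were picked for their extreme ratios, so this adds no support. Of all 2176 windows, 37% had both H4K16R libraries above both HWT libraries, and 19.8% had them below.

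Copy number in H4K16R was close to that in HWT, with a small excess at the windows that were lowest in HWT. The median log2 ratio was 0.062 over the pericentric windows and 0.017 over the arm windows. Taken with single libraries, the 4 pairings of an H4K16R with an HWT library gave medians between 0.054 and 0.067 at pericentric windows and between 0.014 and 0.024 on the arms. With 2 libraries a group, the exact two-sided permutation test of library medians cannot go below 0.333, and it gave 0.333 for both classes. At 806 of the 2176 windows (background 37%) the lower H4K16R library exceeded the higher HWT library, and at 430 (background 19.8%) the higher H4K16R library lay under the lower HWT library. Among pericentric windows these counts were 555 and 272 of 1368 (40.6% and 19.9%), and among arm windows 251 and 158 of 808 (31.1% and 19.6%). The median absolute log2 difference between libraries of unlike genotype was 0.158 at pericentric windows, against 0.096 between the HWT libraries and 0.093 between the H4K16R libraries. On pericentric X these values were 0.325, 0.098 and 0.096. On the arms they were 0.088, 0.069 and 0.064, so on the arms the genotypes differed little more than libraries of 1 genotype did. The pericentric median rested on the low windows and on 3R, and was 0.017 with windows of at least 5 RPM and 0.011 with 3R left out.

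The limma fit on log2(RPM + 1) of all 6 derived libraries, with Benjamini-Hochberg adjustment over 2177 windows, called 28 windows higher (1.29%) and 3 lower (0.138%) in H4K16R at an adjusted p cutoff of 0.001. At a cutoff of 0.05 it called 258 higher (11.9%) and 60 lower (2.76%). Of these, 232 higher and 49 lower windows were pericentric (17.0% and 3.58% of that class), and 26 and 11 were on the arms (3.22% and 1.36%). No window passed 0.001 when only the 4 libraries of HWT and H4K16R were fitted (0 higher and 0 lower, with 450 and 137 windows at an unadjusted p under 0.05). That fit called 199 windows higher and 29 lower at 0.05, of which 190 and 29 were among those of the 6-library fit. With any 1 of the 4 libraries left out, the fit called 0 windows in either direction at 0.001, and at 0.05 it called between 143 and 164 higher and between 17 and 26 lower. The cutoff of 0.05 is therefore used below for counts by group, and stands beside the stricter one for single windows.

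The excess in H4K16R was graded by the RPM of a window in HWT. That level reflects under-replication with the amount of mappable sequence mixed in. The median share of unique 100-base sequences was 50.8% under 5 RPM and 50.7% at 40 RPM or more. On pericentric X it was 21.05% and 100%. The part of mappable sequence in the grading was not tested. At the 308 pericentric windows under 5 RPM in HWT, the median log2 ratio was 0.51 (a 1.42-fold excess), and 297 of them had the higher value in H4K16R. The libraries' medians there were 2.62 and 2.64 RPM in HWT and 3.69 and 3.72 RPM in H4K16R. The median log2 ratio fell to 0.19 at 5 to 10 RPM, 0.04 at 10 to 20 RPM, -0.01 at 20 to 40 RPM and -0.04 at 40 RPM or more. Of the 232 pericentric windows called higher at 0.05, 149 were under 5 RPM and 46 at 5 to 10 RPM in HWT. The 49 called lower all had at least 10 RPM. The shares called higher and lower were 48.4% and 0% under 5 RPM, and 2.01% and 7.63% at 40 RPM or more. The HWT value both sets the level and enters the fit, so these counts are descriptions. The median absolute log2 difference between the HWT libraries was 0.214 and 0.0595 at these 2 levels. A fit that dropped windows averaging under 5 RPM called 123 pericentric windows higher and 56 lower. In RPM the median difference was 1.03 in the lowest level, 1.01 at 5 to 10 RPM, 0.331 at 10 to 20 RPM, -0.206 at 20 to 40 RPM and -1.24 at 40 RPM or more. A median gain of about 1 RPM thus stood in both of the lowest levels, where the fold differed.

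The lowest level minus the highest gave 0.54 in log2 units, between 0.50 and 0.57 over the 4 library pairings. The HWT value is in both the level and the ratio, so no test is given for this difference. For the same reason, the levels were also taken from 1 HWT library and the ratio against the other. The median at under 5 RPM was then 0.48 with the deeper library setting the level and 0.50 with the shallower one. On the same split the HWT libraries differed from each other by medians of -0.03 and -0.02 at this level. The arm windows had few in the low levels. The 12 under 5 RPM had a median log2 ratio of 0.34 and all 12 were higher in H4K16R, the 29 at 5 to 10 RPM had a median of 0.13, and the higher levels lay between 0.00 and 0.03.

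**Figure D1:**
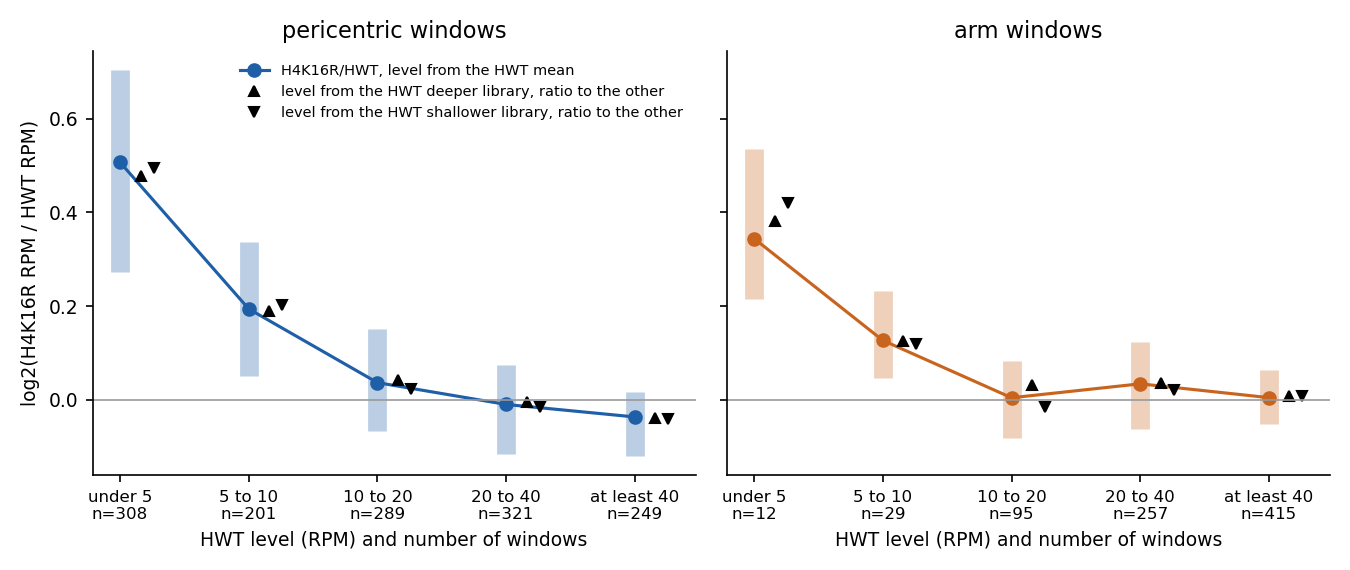
Median log2(H4K16R RPM / HWT RPM) by HWT level in RPM, for pericentric windows (left) and arm windows (right). Circles are medians with levels from the HWT mean, bars run from the first to the third quartile, and triangles take the level from 1 HWT library and the ratio from the other. The circles fall from 0.51 to -0.04 at pericentric windows.

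H3K9R glands, measured beside them, had much higher RPM at the pericentric windows. For H3K9R over HWT, the median in log2 units was 1.96 at pericentric windows under 5 RPM in HWT and 0.35 at 40 RPM or more, against 0.51 and -0.04 for H4K16R. Both comparisons share the HWT libraries. In the direct comparison, limma had H4K16R below H3K9R at 1225 of the 2177 windows (56.3%, adjusted p under 0.05), of which 1189 were pericentric. It had H4K16R above H3K9R at 505 windows, of which 25 were pericentric and 480 were among the 808 arm windows. On the arms the median was -0.22 in H3K9R and 0.02 in H4K16R. RPM is relative to all reads of a library. The listed windows held 8.96% and 8.86% of the reads in the H3K9R libraries, against 6.18% and 6.17% in HWT. The study names such a shift of reads as a possible source of the arm decrease in H3K9R. Its part was not tested here.

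The chromosomes differed in their pericentric excess. The median log2 ratio was 0.22 on 3R (392 windows), 0.21 on X (141 windows) and 0.16 on chromosome 4 (8 windows), and 0.03 on 2R (367 windows), -0.01 on 2L (89 windows) and -0.02 on 3L (371 windows). On 3R, 347 of 392 windows were higher in H4K16R, and 106 were called higher and 1 lower at 0.05. On 3L these calls were 23 and 16, and on 2R 48 and 11. Over library pairings the median ran from 0.22 to 0.23 on 3R and from 0.17 to 0.23 on X. The pericentric windows of 3R were also the lowest in HWT, with a median of 6.40 RPM, against 12.9 RPM on X and 23.7 RPM on 3L. Compared at 1 level, under 5 RPM, the median was 0.52 on 3R (165 windows), 0.63 on X (38), 0.47 on 2R (61) and 0.44 on 3L (41). At 10 to 20 RPM it was 0.14 on 3R, 0.23 on X, 0.01 on 2R and -0.02 on 3L, so that at these levels 3R and X also had the larger medians. On the arms the medians were 0.015 on 2L, 0.021 on 3L, 0.015 on 3R and 0.034 on X, while 2R went the other way at -0.073. Of its 40 arm windows, 9 were higher in H4K16R, and the libraries were apart with H4K16R below at 20 and above at 2.

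**Figure D2:**
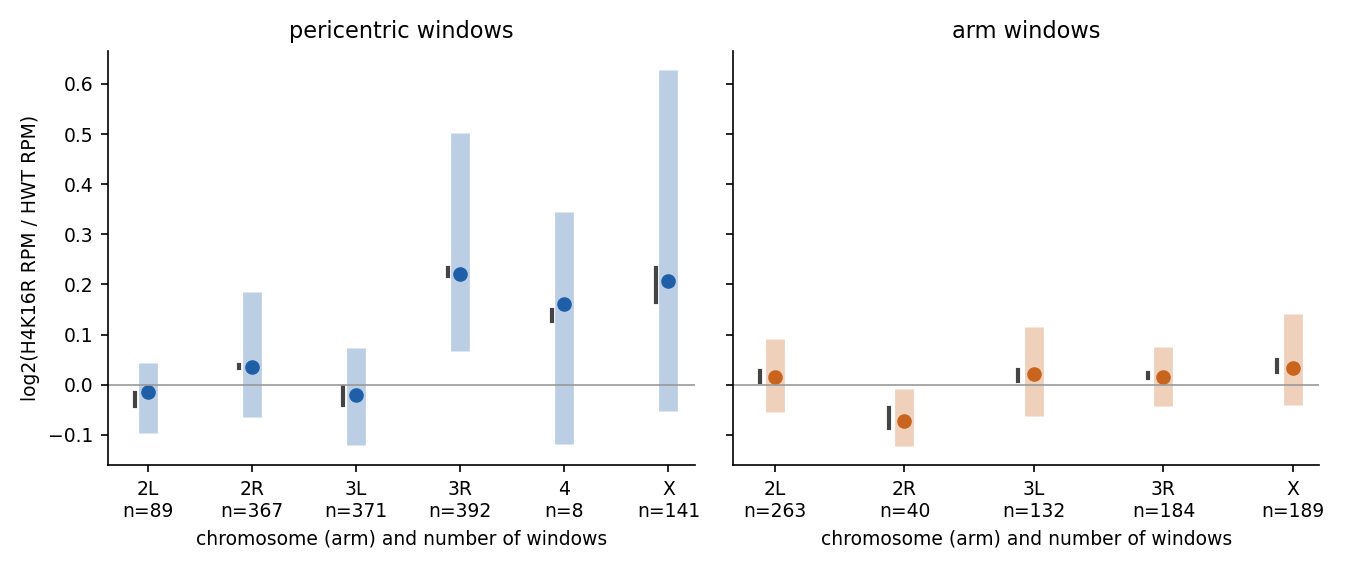
Log2(H4K16R RPM / HWT RPM) by chromosome arm for pericentric (left) and arm windows (right). Circles are medians over windows, coloured bars run from the first to the third quartile, and dark lines span the medians of the 4 pairings of single libraries. Pericentric 3R and X sit at 0.22 and 0.21, and the arm medians run from -0.073 on 2R to 0.034 on X.

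X exceeded the autosomes by 0.15 in median log2 ratio at pericentric windows, between 0.11 and 0.18 over library pairings. At arm windows the excess was 0.021, between 0.016 and 0.034. With windows of at least 5 RPM the pericentric excess was 0.071. Both tests gave an exact permutation p of 0.333, the smallest possible. Pericentric X spread in both directions more than the autosomes did. Of its 141 windows, 51 were called higher (36.2%) and 20 lower (14.2%) at 0.05, against 181 (14.8%) and 29 (2.36%) of 1227 on the autosomes. The X median ran from 0.63 at under 5 RPM in HWT to -0.21 at 40 RPM or more, and the autosomal one from 0.50 to -0.03. The direction of the excess turned when windows were restricted to those with 80% or more of their 100-base sequences unique in the assembly. The median was then -0.27 on X (25 windows) and 0.07 on the autosomes (294 windows), and the X windows called were 14 lower and 1 higher. Of these 25 windows, all but 5 lie in the stretch 22570001 to 22810000, and the 5 outside it had a median of -0.54, with 3 called lower and 1 higher. Below 80% the X medians were between 0.23 and 0.36, and the autosomal ones between 0.04 and 0.06. The HWT level also differed, with medians of 44.7 RPM on X and 10.9 RPM on the autosomes at 80% or more. Below 80% the HWT medians were between 7.90 and 12.6 RPM on X, and between 14.2 and 18.3 RPM on the autosomes. The part of HWT level in the turn of direction was not tested. On the X arm windows, 14 were called higher and 8 lower, which is 22 of the 37 arm calls on 189 of the 808 arm windows.

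The pericentric stretches of X differed among themselves. In X 21700001 to 22440000 the mean RPM was 10.5 in both HWT libraries and 12.09 and 11.997 in H4K16R, with 29 windows called higher and 2 lower of 69. The stretch X 22570001 to 22810000, which overlaps Cda4 (a chitin deacetylase gene), had the lowest median of any pericentric stretch of at least 5 windows. Its mean RPM was 47.7 and 47.0 in the HWT libraries and 41.1 and 40.4 in the H4K16R libraries, a median log2 ratio of -0.24 over 24 windows. Of these, 18 had both H4K16R libraries below both HWT libraries, 12 were called lower and 0 higher at 0.05. Its mean in H3K9R was 45.1 RPM. Within it, the 8 windows from 22690001 to 22770000 fell from 42.5 and 42.9 RPM to 31.6 and 30.6 RPM, a median ratio of 0.717. With this stretch left out, the median of pericentric X was 0.30 (117 windows).

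The last stretch of X, from 23110001 to 23542271, had the highest median of any pericentric stretch of at least 5 windows, 0.35 over 44 windows. It held no protein-coding gene, and changed sign along its length. The 4 windows from 23110001 to 23150000 rose from 22.3 and 21.3 RPM in HWT to 37.4 and 38.9 RPM in H4K16R, and all 4 passed the cutoff of 0.001. Unique 100-base sequences made up a median of 2.21% of these windows. Starting 10 kb further on, the 6 windows from 23160001 to 23220000 fell from 35.3 and 36.7 RPM to 24.03 and 24.68 RPM, and 3 passed 0.001. These 3 include the lowest pericentric window printed above (log2(RPM + 1) difference with SE 0.08, adjusted p = 0.000215). The last run, of 12 windows from 23310001 to 23430000, rose from 11.99 and 11.56 RPM to 22.3 and 22.6 RPM. Of these, 9 passed 0.001, and the highest pericentric window printed above is the last of them (adjusted p = 0.000431). The mean in H3K9R was 33.5, 62.2 and 51.8 RPM in the 3 runs. The annotation places 17 rRNA genes and pseudogenes and 6 R1 and R2 elements, which insert into ribosomal DNA, in this stretch. The 8 windows with an rRNA feature had a median of 0.19, with 2 called higher and 2 lower. Pericentric X as a whole had a median of 0.21, with 36.2% called higher and 14.2% lower, so these few windows do not stand out from it.

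**Figure D3:**
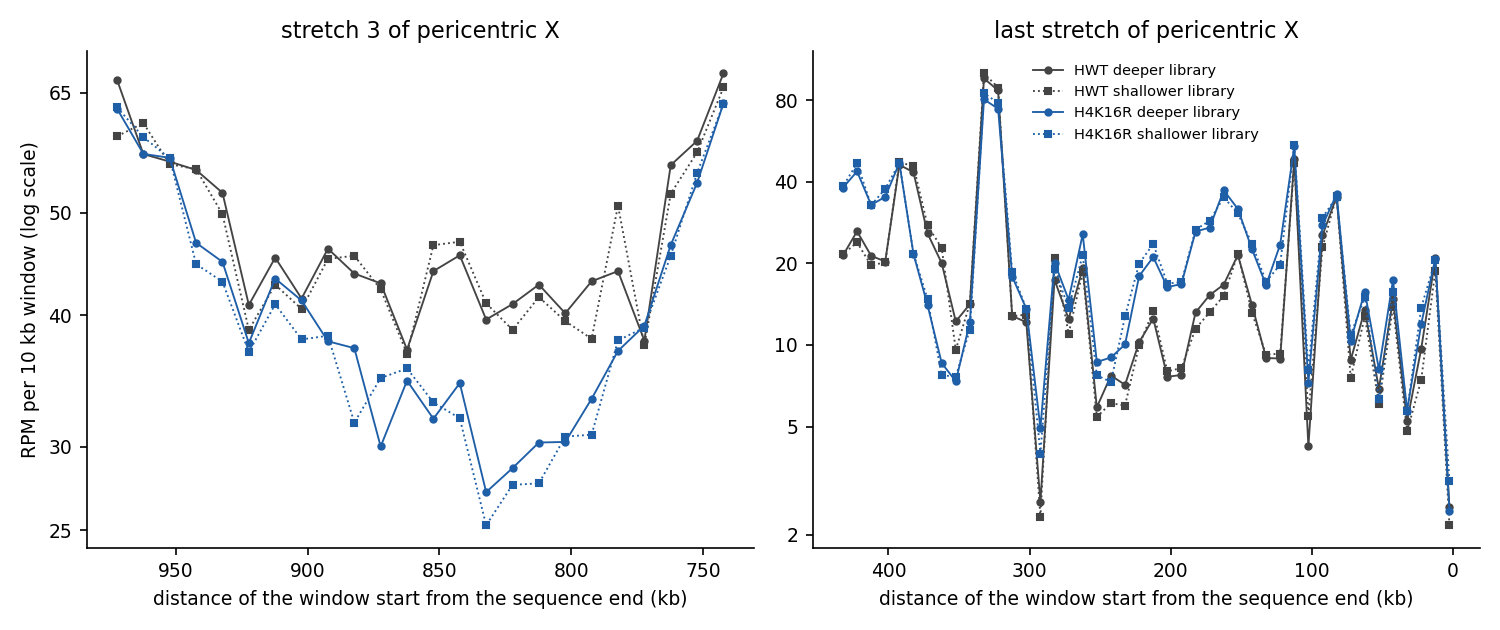
RPM per 10 kb window (log scale) in the 4 libraries against the distance of the window start from the end of the X sequence in kb, for the stretch with the lowest median (left) and the last stretch (right) of pericentric X. Grey is HWT and blue H4K16R, with circles for the deeper and squares for the shallower library. Libraries of a genotype run together where the genotypes part, and the last stretch has H4K16R above, then below, then above HWT.

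The long pericentric stretch of 3R, 1 to 3570000, was the longest of all at 357 windows and held the genes Myo81F, Pzl, spok and Parp1. Its mean RPM was 11.2 and 11.1 in HWT and 12.4 and 12.4 in H4K16R, with a median log2 ratio of 0.26. The libraries of the genotypes were apart with H4K16R above at 229 windows and with H4K16R below at 8, where 40.6% and 19.9% of all pericentric windows were so. The excess was found along the stretch. In successive bins of 500 kb the median was 0.31, 0.40, 0.37, 0.39, 0.14, 0.29 and 0.14, and the HWT medians of these bins were 3.02, 5.53, 3.07, 3.42, 9.21, 3.64 and 11.2 RPM. A pair of adjoining windows in Pzl stood apart from this pattern by its level. At 3R 3170001 to 3180000, where 95.2% of the 100-base sequences occur once, the RPM was 46.4 and 43.4 in HWT and 89.9 and 84.4 in H4K16R (1.94-fold, adjusted p = 0.000599). In the window before it the RPM was 10.9 and 10.8 in HWT and 17.5 and 18.1 in H4K16R (adjusted p = 0.000688).

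Of the list of heterochromatic genes, 28 of 30 names were matched in the annotation and 9 genes overlapped a window. Their 324 windows had a median log2 ratio of 0.24, with 95 called higher and 1 lower at 0.05, where 17.0% of all pericentric windows were called higher and 3.58% lower. Most of these windows lie in Myo81F (198 windows), a myosin gene, and Pzl (72 windows), which encodes the mechanosensitive channel Piezo-like. Both genes are on 3R, where 27.0% of pericentric windows were called higher and 0.255% lower. The median of pericentric 3R was 0.22, so the list lay near the value of that chromosome arm. In Myo81F the mean RPM was 8.57 and 8.54 in HWT and 9.81 and 9.85 in H4K16R, with 66 windows higher and 1 lower. In Pzl it was 11.8 and 11.7 in HWT and 13.5 and 13.5 in H4K16R, with 19 higher and 0 lower. The genes of ecdysone synthesis spok and nvd had medians of 0.28 (3 of 4 windows higher) and 0.18 (1 of 9 higher). For spok the mean RPM was 6.97 and 6.79 in HWT and 8.56 and 8.40 in H4K16R, and for nvd 9.27 and 9.74 in HWT and 10.6 and 10.3 in H4K16R. In Snap25, a gene of synaptic vesicle fusion on 3L, the RPM was 27.2 and 26.8 in HWT and 26.5 and 26.7 in H4K16R, with 1 of 23 windows higher. Dbp80, Haspin and Gprk1 had 4 windows in all and no call.

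Of 54 genes for immunoglobulin-domain adhesion proteins, cell-surface proteins that mostly pair neurons, 14 overlapped 141 windows. The median was 0.06, and 20 windows were called higher and 0 lower, where 11.9% and 2.76% of all windows were. In DIP-lambda on 2R, 11 of 39 windows were higher, and in dpr21 on 2R 5 of 14. The mean of dpr21 was 5.37 and 5.84 RPM in HWT and 6.29 and 6.05 RPM in H4K16R, and 53.4 RPM in H3K9R. On the X arm, dpr8 had a mean of 30.8 and 30.7 RPM in HWT and 33.8 and 35.7 RPM in H4K16R, with 3 of 15 windows higher, while the 30 windows of kirre, a cell fusion gene, had a median of -0.02 and no call. The median over all windows tested was 0.04, so the adhesion genes as a group sat near it.

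Of the 8 homeotic genes, Ubx, abd-A and Abd-B of the bithorax complex overlapped 15 windows, all 15 higher in H4K16R (57.2% of all arm windows were), with a median of 0.09 and 1 call. In abd-A the mean was 27.2 and 26.4 RPM in HWT and 30.4 in both H4K16R libraries, against 17.1 RPM in H3K9R. The whole stretch of 29 windows had 22 in which the H4K16R libraries were both higher and 0 in which both were lower, where 31.1% and 19.6% of all arm windows were so. In Tollo and Toll-6, the 4 windows had a median of -0.02 and no call. For Tollo the RPM was 49.7 and 50.6 in HWT and 48.8 and 47.4 in H4K16R, and for Toll-6 the libraries overlapped, with 27.8 and 24.8 in HWT and 25.6 and 27.4 in H4K16R. Of the dosage compensation genes only lncRNA:roX2 overlapped a window, at 69.9 and 68.6 RPM in HWT and 64.8 and 68.8 RPM in H4K16R, with adjusted p = 0.668. None of the 6 genes for under-replication and H3K9 methylation, nor His4r, His3.3A and His3.3B, overlapped any. The endogenous histone genes, deleted in all 3 genotypes, overlapped 14 windows with medians of 17.7 RPM in HWT and 18.2 RPM in H4K16R. These ranged from -0.17 to 0.35 in log2 ratio with no call, and their reads include those of the transgenic arrays.

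**Figure D4:**
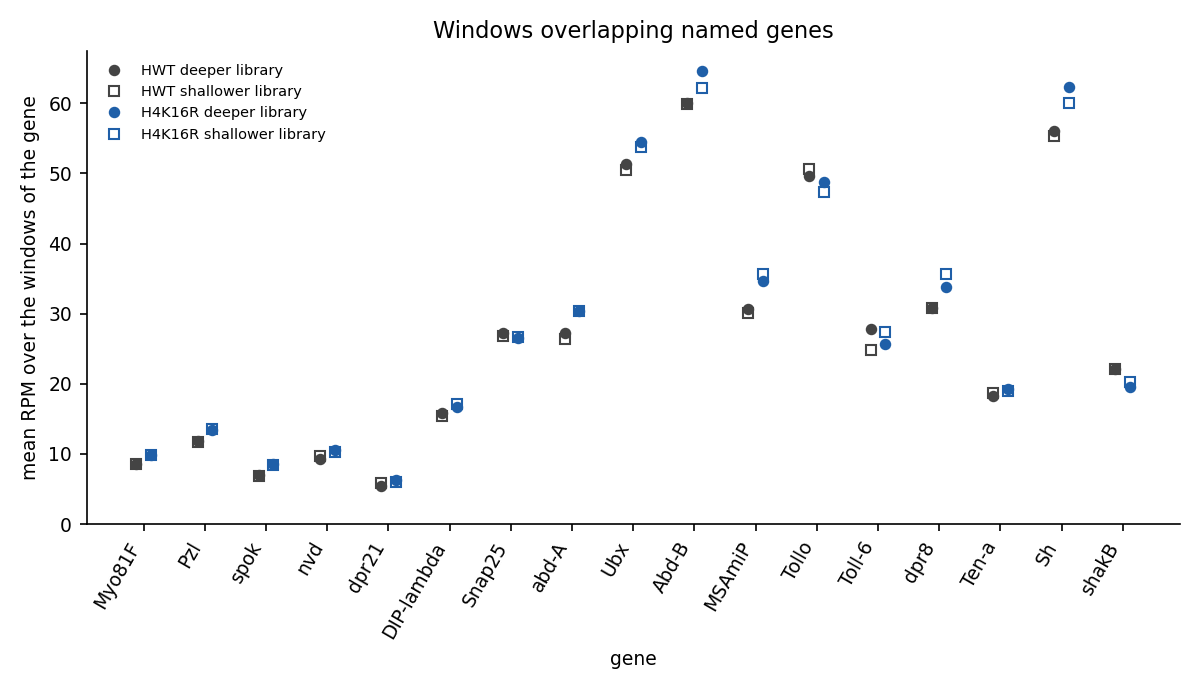
Mean RPM over the windows that overlap named genes, in the deeper (circle) and shallower (square) HWT (grey) and H4K16R (blue) libraries. The genes from Myo81F to Snap25 are pericentric and the others lie on the arms. Both H4K16R points lie above both HWT points for Myo81F, Pzl, spok, abd-A, dpr8 and Sh, among others. They lie below them for shakB and, by less, for Tollo and Snap25.

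Single arm domains moved by small amounts in either direction. The domain X 14280001 to 14580000, which includes dpr8, had 40.8 and 40.9 RPM in HWT and 45.5 and 46.0 RPM in H4K16R, with 5 windows called higher and 19 of 30 above in both libraries. Its highest window, at 14510001, had 38.5 and 39.9 RPM in HWT and 53.5 and 56.5 RPM in H4K16R (adjusted p = 0.00462), and 38.8 RPM in H3K9R. The potassium channel gene Sh, also on X, had a mean of 56.1 and 55.4 RPM in HWT and 62.3 and 60.1 RPM in H4K16R, with 2 of 10 windows higher. Ten-a, a teneurin gene, had 2 of 29 higher. In the longest arm stretch, X 20530001 to 21010000, the median was -0.02 over 48 windows, with 8 windows called lower and 0 higher. These 8 lie at the gap junction gene shakB and just before it. The 4 windows from 20720001 to 20760000 fell from 41.35 and 43.97 RPM to 34.1 and 33.8 RPM, and the H3K9R mean there was 31.8 RPM. In shakB itself the mean was 22.1 and 22.1 RPM in HWT and 19.6 and 20.3 RPM in H4K16R, with 4 of 17 windows lower.

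Some windows near the ends of X, 3L and 2R were called higher. These ends were picked after their values were seen, and the other ends are not described. Of all arm windows 3.22% were called higher at 0.05, with 7.41% on X, 2.27% on 3L, 2.5% on 2R and 1.90% on 2L. At the X tip, 1 to 110000, the mean was 28.6 and 27.3 RPM in HWT and 32.8 and 32.3 RPM in H4K16R, with 4 of 11 windows higher, and at the 3L tip 3 of 8 windows were higher. The 1 arm window past 0.001, which also had the highest ratio of the arm windows at 5 RPM or more, was near the end of 2R, at 25270001, with 9.19 and 8.66 RPM in HWT and 18.2 and 17.0 RPM in H4K16R (1.97-fold, adjusted p = 0.000995). On 2L, 5 of 42 windows of the stretch 16930001 to 17350000 were called higher, among them 17030001 with 6.05 and 7.68 RPM in HWT and 11.1 and 9.46 RPM in H4K16R (adjusted p = 0.0292). The arm stretches of X and the autosomes are set side by side in the plot of stretches. The mean RPM of both H4K16R libraries lay above both HWT libraries at 8 of 13 X stretches and 14 of 36 autosomal ones, and below at 1 and 7. For pericentric stretches the counts above were 2 of 4 on X and 13 of 32 on the autosomes, and below 2 and 12.

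**Figure D5:**
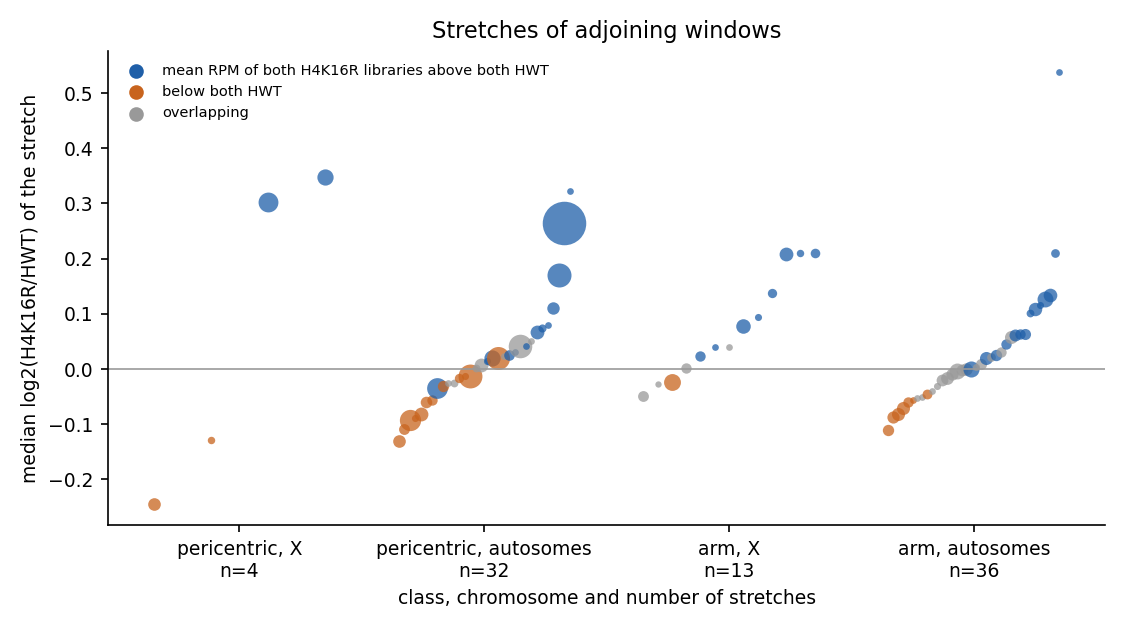
Median log2(H4K16R/HWT) of each stretch of adjoining windows, by class and by X or autosomes, with the area of a point growing with the number of windows. Blue stretches have the mean RPM of both H4K16R libraries above both HWT libraries, orange ones below, and grey ones overlap. The medians run from -0.24 to 0.35 on pericentric X and from -0.05 to 0.21 on the X arm.

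Ratios fell with the GC content of the window on the arms, where the median was 0.06 at under 38% GC and -0.03 at 44% or more, with Spearman's rho of -0.25 over 808 windows. At pericentric windows these medians were 0.09 and 0.01, and rho was -0.12 over 1368 windows. Windows share libraries and neighbours, so these are descriptions. The HWT median of arm windows was 32.5 RPM at under 38% GC and 51.5 RPM at 44% or more, so GC content is mixed with HWT level there. The 2 were not separated. The part of GC content in the chromosome differences was not tested. Runs of at least 3 adjoining windows called in the same direction numbered 28, with 121 of the 318 windows called at 0.05. X held 10 runs and 3R another 10, all 10 on 3R higher. The runs are made of the same calls, which on pericentric 3R were 106 higher and 1 lower, so they are no separate result.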

How the data were processed

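DNA of 25 salivary glands per replicate was sequenced for 2 replicates of each of 3 genotypes. The authors trimmed reads with Trimmomatic 0.36, aligned them to dm6 with Bowtie2 2.3.2, filtered with SAMtools 1.6, counted reads in 10 kb windows with bedtools, scaled them to RPM (reads per window relative to the depth of the library) and deposited the average of both replicates in 2 lists. The lists hold windows at domains called under-replicated in HWT. The mapping filter thins repeats, and RPM is relative to all reads of a library, so a gain elsewhere lowers it.

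Each different window was used once (6 repeats were dropped), and log2(H4K16R/HWT) was taken without a pseudocount. Every average is a sum of whole reads over 2 library totals. The totals that gave whole numbers at 100% of the windows were used to derive the single libraries, whose replicate numbers are unknown. This step was added after the averages were seen. No per-replicate column was left unused (0). limma 3.58.1 (R 4.3.3) fitted a linear model with eBayes to log2(RPM + 1) in all 6 derived libraries, with a cutoff of 0.001. Recovery and fit were tested on simulated data. The study's methods name Student's T test and this cutoff. Sequence, genes, GC content and unique 100-base sequences came from the dm6 assembly and its annotation, and the positions are 1-based.

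Named windows were the 5 highest and 5 lowest ratios of each list at 5 RPM or more in HWT, those past 0.001, the longest stretch, the stretches of extreme median with at least 5 windows, and genes of fixed lists, of which those the results turn on are described. Runs of at least 3 windows, rRNA features, Cda4, Sh, Ten-a, shakB and chromosome ends were chosen after their values were seen. Windows, lists and tests were chosen with earlier results of these data known. Alternatives covered the pseudocount, a minimum RPM, unique sequence, scaling, stretches in place of windows, repeated windows, the test and each library left out.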

Additional observations from a re-analysis of the deposited data

How the results depend on the processing

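With a pseudocount of 1 RPM the pericentric median log2 ratio was 0.0537, the X excess at pericentric windows 0.117 and the difference between HWT levels 0.394, and 76 windows had a ratio of at least 1.5 in place of 148. A pseudocount of 0.1 RPM gave 0.514 for that difference, and limma then called 0 windows higher and 0 lower at 0.001. With windows limited to a mean of 5 RPM or more, the median was 0.0164 over all windows and 0.0169 over pericentric ones, the pericentric X excess 0.0712, and 41 windows had a ratio of at least 1.5, while limma called 5 windows lower in place of 3. Means in place of medians gave 0.102 over all windows, 0.144 over pericentric and 0.0289 over arm windows, a pericentric X excess of 0.125 and a level difference of 0.569. In windows with at least 80% unique sequence the pericentric X excess reversed to -0.332, the arm X excess was 0.0276, and the medians were 0.0213 over all and 0.0429 over pericentric windows. Stretches as the unit gave 0.0152 over all and 0.011 over pericentric windows, and X excesses of 0.0762 at pericentric and 0.0382 at arm windows. The ratio of summed RPM was 0.0186 over all and 0.0171 over pericentric windows. The form of the methods' Student's T test that is unpaired on RPM has these values as its effects, and the form paired on log2 ratios has the means above. Their p-values take neighbouring windows as replicates and are not given. Setting levels by the deeper HWT library gave a level difference of 0.517. A ratio of 2 in place of 1.5 left 29 higher and 2 lower windows in place of 148 and 5, and a cutoff of 0.05 in place of 0.001 gave 258 higher and 60 lower. Only the 4 libraries gave 0 higher and 0 lower at 0.001. Chosen after seeing the data, leaving out X gave a pericentric median of 0.0542. Leaving out 3R gave 0.0146 over all and 0.0106 over pericentric windows, a pericentric X excess of 0.203 and a level difference of 0.523. The cause of these changes was not tested. The other alternatives gave values within the spread between libraries or, for counts, within 1.5 times (59 of 118).

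Leaving out each library in turn gave medians from 0.0348 to 0.0425 over all windows, 0.0538 to 0.0639 over pericentric and 0.0136 to 0.024 over arm windows. The X excess ran from 0.113 to 0.196 at pericentric and from 0.0195 to 0.0311 at arm windows, and the level difference from 0.521 to 0.564. Between 154 and 166 windows had a ratio of at least 1.5 and between 4 and 7 one of at most 1/1.5. At 0.001, limma called 0 windows in either direction without any 1 library. No paired analysis was possible because the averages do not carry replicate numbers, and edgeR was not run on averaged RPM.

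At under 5 RPM a window holds few reads, and a single read was between 0.0375 and 0.0432 RPM in the 4 libraries compared. With 2 libraries a group, the smallest exact p was 0.333. Windows with little unique sequence rest on part of their length.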
